A study of Mus musculus with 24 samples.

Results

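The immunoglobulin heavy-chain variable (Ighv) genes were followed in lung RNA-Seq data of C57BL/6 mice. Members were all rows of the expression table whose gene symbol starts with Ighv, which gave 90 of 23891 genes, in 14 numbered families. The study addressed steroid-resistant airway inflammation in aging, and its 24 samples were left lung lobes in 4 groups. Adult mice of 20 wk given saline (n = 5) and aged mice of 80 wk given saline (n = 5) had no allergen. Aged mice of 80 wk received house-dust mite extract (HDM), an inhaled allergen, at 50 µg per dose (n = 7), or that extract plus dexamethasone (Dex), a steroid drug, given at 4 mg/kg with 72 h between doses (n = 7), and both groups were sampled 24 h after the last challenge. Adult mice given HDM and mice given Dex alone were not analysed here. Values are CPM, the reads of a gene scaled to a common total of reads on genes in every sample.

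A developing B cell joins 1 Ighv gene to a diversity and a joining segment, and the joined exon encodes most of the antigen-contacting part of the antibody heavy chain. Families group genes of similar sequence. Plasma cells, the antibody-secreting descendants of B cells, hold far more immunoglobulin mRNA per cell than resting B cells, and lung tissue of mice exposed to allergen can hold both. The B-1a cells, a B cell subset known for natural IgM, often use Ighv11-2 or Ighv12-3. Ighv1-72 is known from antibodies of C57BL/6 mice against nitrophenyl haptens.

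All 90 members were annotated as variable genes on the reverse strand of chromosome 12, between bases 113578504 and 116000461 of GRCm38. The annotation held 113 such symbols, and the other 23 were not analysed here. The coding lengths of the 90 members ran from 347 to 394 bases with a median of 351, so that CPM of different members are close to a comparison per length. Coding sequences were 85.1% identical at the median within a family and 59.8% between families. The nearest other member was 94.9% identical at the median, and 15 clusters of at least 95% identity held 42 of the 90 members. Stretches of 50 bases, the length of 1 read, were compared with all other annotated Ighv genes and pseudogenes. Of these stretches, Ighv1-62-2 and Ighv1-71 each shared 97.4%, Ighv1-72 91.4%, Ighv1-53 57.6% and Ighv11-2 52.3%. Reads per gene, estimated from the spacing of low CPM values, lay within 0.05 of whole numbers in 94.5% of the values under 50 reads for the 80 members whose nearest relative was under 98% identical. For the 10 members with a closer relative this share was 53.5%, so that the split of reads within such pairs is uncertain.

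Sequences of some members that led samples are given below, along with Ighv11-1 and a near-identical pair, which never led. They are the last 294 coding bases of the GENCODE transcripts of GRCm38, in the direction of transcription. Ighv1-53 (chr12:115158403-115158835), Ighv1-55 (chr12:115208095-115208591) and Ighv1-72 (chr12:115757984-115758461) are the family 1 genes that were most often among the 5 highest, and capitals mark the bases of Ighv1-55 and Ighv1-72 that differ from Ighv1-53.
Ighv1-53: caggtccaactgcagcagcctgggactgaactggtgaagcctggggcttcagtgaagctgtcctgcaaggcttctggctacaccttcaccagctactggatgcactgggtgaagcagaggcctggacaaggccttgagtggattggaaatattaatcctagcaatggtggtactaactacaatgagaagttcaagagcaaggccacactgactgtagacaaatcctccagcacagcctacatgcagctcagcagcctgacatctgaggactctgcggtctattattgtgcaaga
Ighv1-55: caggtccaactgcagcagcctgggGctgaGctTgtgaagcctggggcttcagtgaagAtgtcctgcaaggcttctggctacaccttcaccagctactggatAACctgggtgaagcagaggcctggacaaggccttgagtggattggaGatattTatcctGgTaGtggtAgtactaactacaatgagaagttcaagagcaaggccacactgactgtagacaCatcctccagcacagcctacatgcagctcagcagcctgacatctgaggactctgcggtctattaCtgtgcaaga
Ighv1-72: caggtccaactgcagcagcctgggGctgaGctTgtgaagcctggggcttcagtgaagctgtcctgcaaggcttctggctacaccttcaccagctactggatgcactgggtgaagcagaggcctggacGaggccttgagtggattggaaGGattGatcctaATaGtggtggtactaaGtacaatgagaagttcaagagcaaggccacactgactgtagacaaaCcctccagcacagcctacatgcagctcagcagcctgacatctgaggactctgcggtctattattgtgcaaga
Over this stretch Ighv1-55 differed from Ighv1-53 at 15 bases and Ighv1-72 differed from it at 12. Ighv11-2 (chr12:114048241-114048812) is shown with Ighv11-1 (chr12:113981879-113982341), the other member of family 11, in which capitals mark the 4 bases that differ from Ighv11-2.
Ighv11-2: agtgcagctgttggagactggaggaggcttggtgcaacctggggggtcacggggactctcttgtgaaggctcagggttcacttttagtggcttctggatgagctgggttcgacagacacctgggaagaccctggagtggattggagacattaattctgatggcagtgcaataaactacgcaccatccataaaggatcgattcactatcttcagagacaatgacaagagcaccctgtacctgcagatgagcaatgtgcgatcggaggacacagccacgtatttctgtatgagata
Ighv11-1: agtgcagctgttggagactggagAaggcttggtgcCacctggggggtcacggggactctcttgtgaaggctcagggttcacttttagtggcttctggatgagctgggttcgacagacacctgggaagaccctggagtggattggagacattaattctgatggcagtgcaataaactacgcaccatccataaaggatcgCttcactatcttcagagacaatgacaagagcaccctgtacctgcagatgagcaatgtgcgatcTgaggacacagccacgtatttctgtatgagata
Despite this likeness the reads of family 11 lay almost all on Ighv11-2, since Ighv11-1 reached at most 0.916 CPM in any sample, where Ighv11-2 was at 298 CPM. Ighv1-71 (chr12:115742205-115742647) and Ighv1-62-2 (chr12:115446409-115446869) are identical over the stretch printed and differ at 1 base of 359 coding bases, so that 1 sequence stands for both.
Ighv1-71: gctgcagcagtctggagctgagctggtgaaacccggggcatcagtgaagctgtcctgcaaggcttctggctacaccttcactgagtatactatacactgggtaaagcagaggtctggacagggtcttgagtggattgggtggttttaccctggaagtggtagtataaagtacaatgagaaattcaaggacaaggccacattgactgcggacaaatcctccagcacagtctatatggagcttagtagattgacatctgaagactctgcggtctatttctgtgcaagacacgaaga
Ighv9-1 (chr12:114093928-114094358) held most of the Ighv reads of 1 sample, and capitals mark the 12 bases at which it differs from its nearest relative, Ighv9-2.
Ighv9-1: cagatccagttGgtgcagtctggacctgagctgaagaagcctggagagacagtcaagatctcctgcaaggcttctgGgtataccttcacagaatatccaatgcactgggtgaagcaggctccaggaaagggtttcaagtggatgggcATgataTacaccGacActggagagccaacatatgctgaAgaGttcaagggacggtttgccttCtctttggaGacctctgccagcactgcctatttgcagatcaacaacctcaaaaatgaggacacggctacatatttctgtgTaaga

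The samples were not alike in depth and content. With 1 spacing of the low CPM values taken as 1 read, depth was 10 to 33.1 M reads per sample. A floor of 3 reads then stood at 0.0907 to 0.299 CPM. The 7SL RNA (Rn7s1 and Rn7s2), a small RNA of the signal recognition particle, took over 25% of the CPM in HDM samples 1 to 5, HDM + Dex samples 1, 2, 3 and 6 and adult sample 1, and 9.92% to 18.9% in the others. Sftpc, the surfactant gene of alveolar type 2 cells, was lowest in adult sample 1 (1212 CPM), HDM + Dex sample 1 (1291 CPM) and HDM sample 3 (1405 CPM), as compared with 2511 CPM or more elsewhere. By Xist and Ddx3y, 5 of 5 adult, 2 of 5 aged saline, 2 of 7 HDM and 4 of 7 HDM + Dex samples were female. B cells were present by Ms4a1, a surface protein of B cells, at group medians of 18 CPM in adult, 36.5 in aged saline, 22 in HDM and 26.9 in HDM + Dex samples. Pax5, a B cell transcription factor, had medians of 19.7, 32.1, 24.5 and 21.1 CPM in the same order. Neither gene passed the test in any comparison, at limma adjusted p of 0.371 or more.

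The summed CPM of the Ighv genes was lowest in the adult samples, at 4.04, 14.1, 13.4, 13.2 and 24.0. Aged saline samples held 130, 537, 400, 644 and 90.8 CPM, so that every aged saline sample lay above every adult sample. HDM samples ran from 218 to 1490 CPM with a median of 353, and HDM + Dex samples from 55.2 to 528 CPM with a median of 220. The 3 aged groups overlapped. The sums rested on 50 to 447 estimated reads in adult samples and on 594 to 35244 in aged samples, so that the levels of single genes are least exact in the adult group. In bulk tissue, fewer B lineage cells and less immunoglobulin RNA per cell cannot be told apart.

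**Figure D1:**
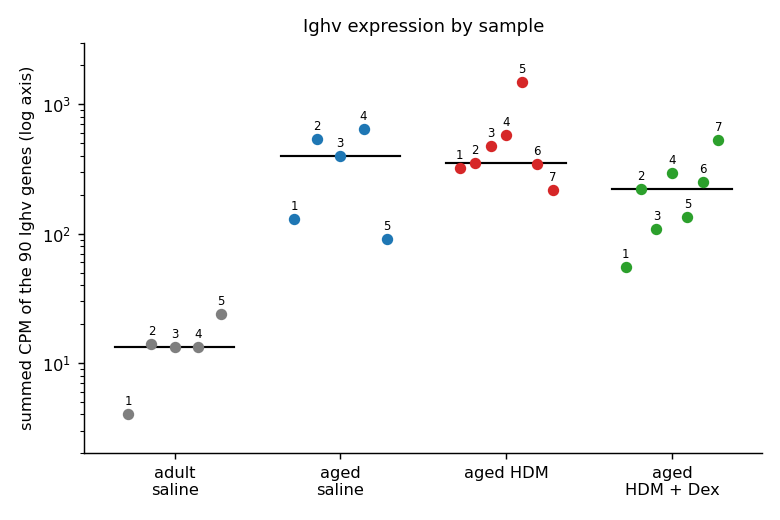
Summed CPM of the 90 Ighv genes in each sample (points, numbered by replicate) by group on a log axis, with group medians as lines. The 5 adult samples lie between 4.04 and 24.0 CPM, below all 19 aged samples, and HDM sample 5 is the highest at 1490 CPM.

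In aged samples few Ighv genes carried the sum, and the number differed among the groups. The effective number of genes is the inverse Simpson index, which equals the number of genes if all were equally high. It was 8.96, 9.46, 8.10, 6.15 and 11.4 in the aged saline samples, all below the lowest adult value of 19.3. The adult values were 22.7, 31.1, 33.1, 19.3 and 25.9, and adult samples held 29 to 59 detected members each, at far fewer reads. HDM samples ran from 10.9 to 23.8 with a median of 18.7, and 6 of 7 lay above the highest aged saline value. HDM + Dex samples ran from 3.03 to 17 with a median of 10.2 and overlapped both other aged groups. To reach 50% of the Ighv sum took 3, 3, 3, 3 and 5 genes in aged saline samples, 5 to 8 genes in HDM samples, 1 to 7 genes in HDM + Dex samples and 8 to 13 genes in adult samples. Merging members of 95% identity or more lowered the medians of the effective number to 14.8 in adult, 4.58 in aged saline, 9.76 in HDM and 4.99 in HDM + Dex samples, in the same order. These measures are sums over the members and were not tested.

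**Figure D2:**
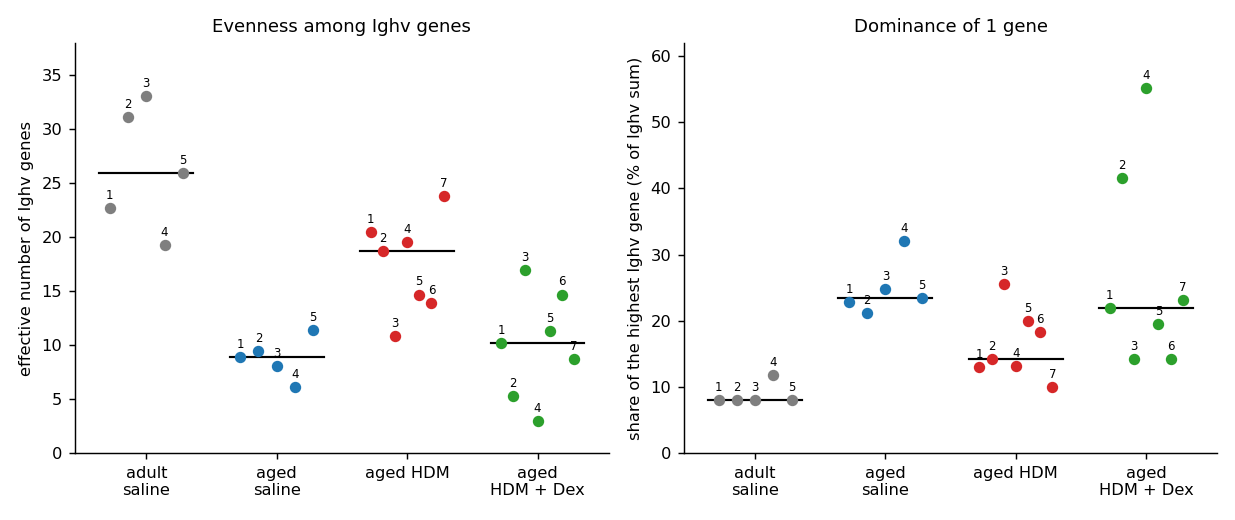
Effective number of Ighv genes (left) and share of the highest Ighv gene in percent of the Ighv sum (right) for each sample, numbered by replicate, with group medians as lines. Aged saline samples lie between 6.15 and 11.4 effective genes, HDM samples between 10.9 and 23.8, and the highest gene of HDM + Dex sample 4 holds 55.1%.

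Counting ties, 8 of the 90 members were ever the highest gene of a sample, 33 were among the 5 highest in at least 1 sample and 57 never were. Ighv1-55 was among the 5 highest in 20 of the 24 samples, Ighv1-72 in 18, Ighv1-53 in 14 and Ighv11-2 in 11. In the aged saline group Ighv1-53 was the highest gene in 4 of 5 samples, with 22.8% to 32.1% of the Ighv sum, and Ighv6-3 led sample 2 with 21.2%. In the HDM group Ighv11-2 led samples 1, 3, 4 and 5 with 13.1% to 25.5%, Ighv1-53 led samples 6 and 7 with 18.3% and 9.99%, and Ighv1-72 led sample 2 with 14.2%. In the HDM + Dex group Ighv11-2 led samples 1, 2, 3 and 6 with 14.2% to 41.6%. The other HDM + Dex samples were led by Ighv9-1 (sample 4, 55.1%), Ighv1-55 (sample 5, 19.5%) and Ighv1-53 (sample 7, 23.2%). The highest adult genes held 8.0% to 11.9%, which in adult sample 1 was 0.323 CPM each of Ighv2-9-1 and Ighv5-17. Counts per gene do not show the joined sequences, so that 1 large clone and many cells that use the same gene cannot be told apart.

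Family 1, with 46 members, had the largest share of the sum in 23 of the 24 samples. Its share was 55.8% to 68.2% in adult, 68.0% to 87.8% in aged saline, 50.7% to 74.2% in HDM and 34.7% to 88.7% in HDM + Dex samples. Family 11, in which Ighv11-2 carried nearly all reads, held 2.0% to 11.9% in adult samples, with a median of 4.57%, at no more than 1.94 CPM. It held 0.182% to 3.30% in aged saline samples, with a median of 0.244%. It held 1.12% to 25.5% in HDM samples, with a median of 13.1%, and 0.0870% to 41.6% in HDM + Dex samples, with a median of 14.4%. Family 5 held 4.47% to 12% in adult, 1.39% to 3.57% in aged saline, 3.03% to 6.87% in HDM and 0.672% to 4.26% in HDM + Dex samples.

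Several of the smaller families were high in a single sample. Family 9 held 55.9% in HDM + Dex sample 4 and 16.1% in sample 6, as compared with a group median of 1.87%. Family 6 held 22% in aged saline sample 2, where Ighv6-3 reached 114 CPM against 0.0495 to 9.75 CPM in the other 4. Family 8 held 13.8% in aged saline sample 3, where Ighv8-8 reached 54.6 CPM. Family 14 held 13.6% in HDM + Dex sample 5. Ighv10-1, at 29 CPM in HDM sample 6, and Ighv12-3, at 16.2 CPM in HDM sample 7, raised families 10 and 12 to 8.72% and 7.40%. Ighv13-2, the single member of family 13, reached 24.1 CPM in HDM + Dex sample 7 and at most 2.22 CPM in every other sample.

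By position, the 30 members nearest to the constant genes (chr12:113578504-114176867) hold no family 1 gene. They carried 5.09% to 13.2% of the sum in aged saline samples, all below the 24.1% to 34.0% of adult and the 13.9% to 43.3% of HDM samples. In HDM + Dex samples they carried 4.31% to 63.5%. The 30 farthest members (chr12:114991108-116000461), of which 28 belong to family 1, carried 55.2% to 77.5% in aged saline samples and 39.8% to 50.0% in adult samples.

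**Figure D3:**
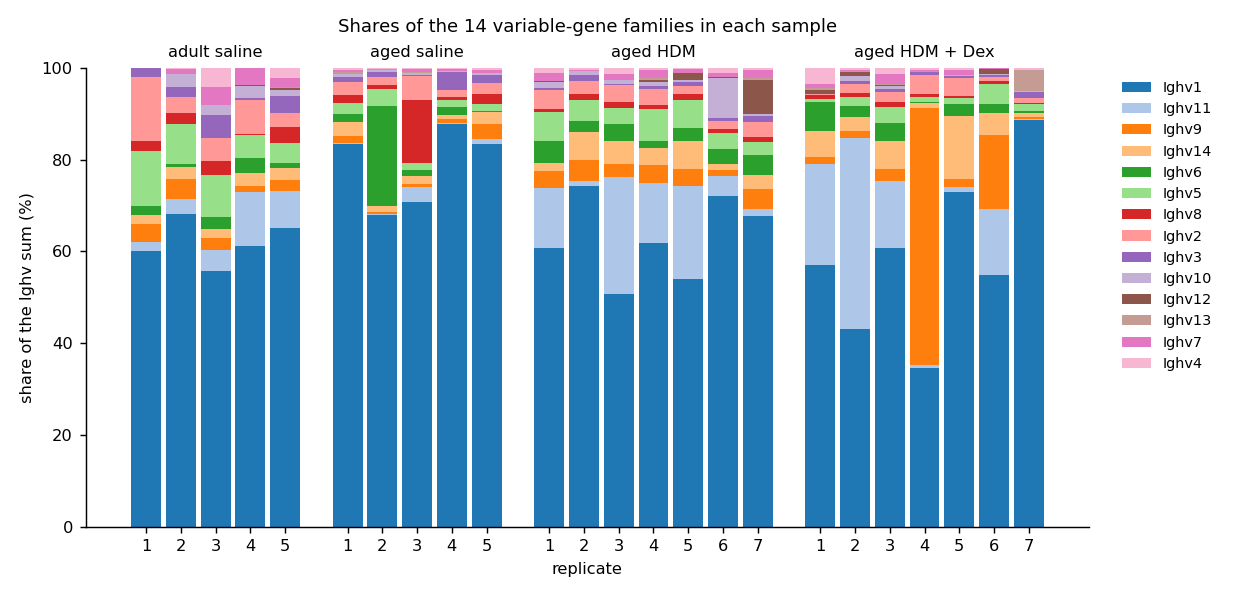
Share of each of the 14 Ighv families in the Ighv sum (stacked, percent) for every sample, by group and replicate. Family 1 is the largest block in all samples but HDM + Dex sample 4, where family 9 holds 55.9%, and family 11 is wide in most HDM samples and in HDM + Dex samples 1, 2, 3 and 6.

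Aged and adult lungs were compared in the saline groups. Of the 55 members with a mean of at least 1 CPM, 9 were higher in aged lungs (adjusted p under 0.05, limma) and none was lower. Of all 17744 genes tested, 0.592% were higher and 0.0620% were lower. After rescaling by median of ratios, 7 members and 0.580% of all genes were higher, and 0.451% of all genes were lower. The log2 fold change was above 0 in 55 of 55 members, with a median of 0.95 as compared with 0.19 over all genes, and at an unadjusted p under 0.05 there were 45 members and 11.2% of all genes. In 27 of the 55 every aged sample lay above every adult sample, as compared with 2.91% of all genes. The filter took the mean over all 24 samples, of which 19 were aged, so that members high only in aged lungs passed it. Ighv1-85, for example, had no reads in any adult sample. The direction and lack of overlap of the tested members may therefore follow in part from the filter. Of the 9 called members, 7 belong to family 1, of which 31 members were tested.

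Ighv1-53 was at 0, 0.198, 0.614, 0.108 and 0.376 CPM in adult samples. It was at 29.6, 74.8, 99.0, 207 and 21.3 CPM in aged saline samples, with a log2 fold change of 5.69 (SE 0.44, limma adjusted p = 2.96e-06). All aged samples were far above all adult samples, and this was the largest change of any member. Ighv1-72 was at 0.242 to 1.14 CPM in adult and at 27.0, 90.8, 12.6, 102 and 5.49 CPM in aged saline samples (log2 fold change 4.20, SE 0.57, limma adjusted p = 0.00147). Ighv1-55 was at 0.161 to 1.67 CPM in adult and 9.99, 23.8, 8.42, 67.0 and 11.1 CPM in aged saline samples (log2 fold change 3.34, SE 0.43, limma adjusted p = 0.00115). Both rose without overlap between the groups, as did Ighv1-26 (log2 fold change 3.10), Ighv1-64 (2.90) and Ighv1-82 (2.43). Outside family 1, Ighv14-2 rose from at most 0.247 CPM in adult to 0.742 to 2.51 CPM in aged saline samples (log2 fold change 1.19), and Ighv9-3 rose by a log2 fold change of 0.99. Ighv11-2 did not pass the test with age, at 0.0807 to 1.94 CPM in adult and 0.318 to 13.2 CPM in aged saline samples (limma adjusted p = 0.586). Age and sex were partly joined here, since 0 of 5 adult and 3 of 5 aged saline samples were male, and with sex in the model 15 members and 123 of all 17744 genes were called, as compared with 9 and 116 without. The 15 hold 6 of the 9, without Ighv1-82, Ighv14-2 and Ighv9-3, whose log2 fold changes were then 2.11, 1.2 and 0.91 (limma adjusted p of 0.0977 to 0.196).

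Genes of antibody production moved in the same comparison. Of the 8 heavy-chain constant genes, 5 were higher in aged lungs. Ighm, the constant gene of IgM, was at 34.6 to 110 CPM in adult and 490 to 3587 CPM in aged saline samples (log2 fold change 4.55, SE 0.51, limma adjusted p = 0.000181). Ighg2b, Ighg2c, Ighg1 and Igha rose by log2 fold changes of 5.02, 4.88, 3.69 and 2.09. Of 11 tested genes of antibody-secreting cells, 3 rose, namely Jchain, the chain that joins IgM and IgA into polymers (5.23), Mzb1, a chaperone of antibody folding (2.48), and Derl3, a gene of protein quality control (1.31). Ung, the only tested gene of 5 listed for V(D)J joining and class switching, did not pass the test (0.25).

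HDM and saline were compared in aged mice. Of the 55 members tested, 16 were higher with HDM and none was lower, as compared with 4.04% of all genes that were higher and 21.2% that were lower. The log2 fold change was above 0 in 46 members, with a median of 0.75 as compared with -0.23 over all genes. After rescaling by median of ratios, which moved the median of all genes to -0.01, 18 members were higher and none was lower, with a median of 0.89, as compared with 10.9% higher and 11.6% lower among all genes. The called members came from 9 families: 7 of 31 tested in family 1, 2 of 3 in family 9, and 1 each in families 2, 4, 5, 7, 10, 11 and 14. With members of at least 95% identity merged, the calls of families 2 and 5 were lost. Ighv2-2 with Ighv2-4 and Ighv2-5 had a limma adjusted p of 0.258, and Ighv5-4 with Ighv5-6 had 0.0944. Families 1, 4, 7, 9, 10, 11 and 14 kept a call. None of the 7 tested members of families 3, 6, 8, 12 and 13 was called. In 2 members, Ighv1-71 and Ighv9-3, the groups did not overlap, as compared with 1.03% of all genes. The filter on the mean over all 24 samples also let in members that were high mainly with HDM. Ighv9-2, for example, had a mean of 4.48 CPM in HDM, 0.282 in aged saline and 0.304 in HDM + Dex samples. The counts and direction of the tested members may therefore follow in part from the filter.

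Ighv11-2 had the largest change. It was at 0.318, 0.980, 13.2, 1.46 and 0.940 CPM in aged saline samples and at 3.47 to 298 CPM with a median of 42.2 in HDM samples (log2 fold change 3.55, SE 1.03, limma adjusted p = 0.0159). HDM samples 2, 6 and 7, at 3.95, 15 and 3.47 CPM, lay within or just above the aged saline range, so that the groups overlapped. Ighv1-62-2 and Ighv1-71 were summed, since 1 coding base separates them. Their sum was 0.388, 3.36, 4.01, 2.21 and 0.643 CPM in aged saline samples. In HDM samples it was 18.8, 47.5, 28.5, 54.0, 70.9, 7.83 and 13.6 CPM, above every saline sample. Fitted one by one, Ighv1-62-2 rose by a log2 fold change of 3.17 (limma adjusted p = 0.00139) and Ighv1-71 by 2.66 (limma adjusted p = 0.000984). Fitted as a sum, the pair rose by 3.36 (SE 0.52, limma adjusted p = 0.000462).

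Ighv9-3 was at 0.822 to 1.96 CPM in aged saline and 2.96 to 32.5 CPM in HDM samples (log2 fold change 2.10, SE 0.51, limma adjusted p = 0.00562). Ighv14-2 was at 0.742 to 2.51 CPM in aged saline and 1.52 to 58.9 CPM in HDM samples (log2 fold change 1.92). Ighv5-4 was at 0.297 to 3.22 CPM in aged saline and 0.544 to 25.9 CPM in HDM samples (log2 fold change 1.83). The groups overlapped in Ighv14-2 and Ighv5-4, and HDM sample 5 was the highest in each of these 3 genes. Fitted as a sum with its relative Ighv5-6, Ighv5-4 did not pass the test (log2 fold change 1.31, SE 0.57, limma adjusted p = 0.0944). The 3 members most often among the 5 highest in aged saline samples did not pass the test. Ighv1-53 was at 21.3 to 207 CPM in aged saline and 7.90 to 63.0 CPM in HDM samples (log2 fold change -1.45, SE 0.65, limma adjusted p = 0.101). Ighv1-72, at a log2 fold change of 0.20, and Ighv1-55, at 0.70, had adjusted p of 0.812 and 0.420 in the same limma fit. Ighv6-3, which led aged saline sample 2, did not pass the test either (log2 fold change 0.98, limma adjusted p = 0.335).

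Of the constant genes, 3 were higher with HDM and 1 was lower. Igha, the constant gene of IgA, was at 11.8 to 26 CPM in aged saline and 58.4 to 199 CPM in HDM samples (log2 fold change 2.58). Ighg1 was at 3.07 to 124 CPM in aged saline and 68.6 to 1423 CPM in HDM samples (log2 fold change 3.98). Its median share of the summed constant genes was 0.705% in aged saline and 19.8% in HDM samples. Ighe, the constant gene of IgE, was at 0 to 0.553 CPM in aged saline and 0.544 to 10.7 CPM in HDM samples (log2 fold change 2.0), and Ighg2c was lower (-1.57). Slamf7 rose (1.01) and the other 10 tested genes of antibody-secreting cells did not pass the test. Ung, which acts in class switching, rose by 0.65.

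The 7SL share moved with HDM and with Ighv11-2. All 5 aged saline samples lay below 25% 7SL and 5 of 7 HDM samples lay above it. Over the aged samples, Ighv11-2 was the highest member in 8 of 9 samples above 25% and in 0 of 10 below. Its share of the Ighv sum was 0.0870% to 4.38% in the samples below 25%, and 1.12% to 41.6% above, where HDM sample 2 was the low exception. The summed Ighv CPM over the summed constant-gene CPM was 0.216 to 0.365 above and 0.113 to 0.248 below. Of the 9 samples above 25%, 8 were male by Ddx3y. The 3 male samples below 25%, all of them aged saline, had Ighv11-2 shares of 0.182% to 1.03%, and the 1 female sample above, HDM + Dex sample 6, had 14.3%. With the 7SL share as a covariate, 1 member was called in place of 16, and 1571 of all 17744 genes in place of 4482. Within the samples below 25%, where only HDM samples 6 and 7 remain, 35 of the 55 tested members had a higher mean with HDM, with a median difference of 0.22 on the log2 scale. The filter limit given for HDM and saline applies here too, and the matching share over all genes was not computed. Above 25% there was no saline sample. The part of the 7SL share in these differences was not tested further.

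**Figure D4:**
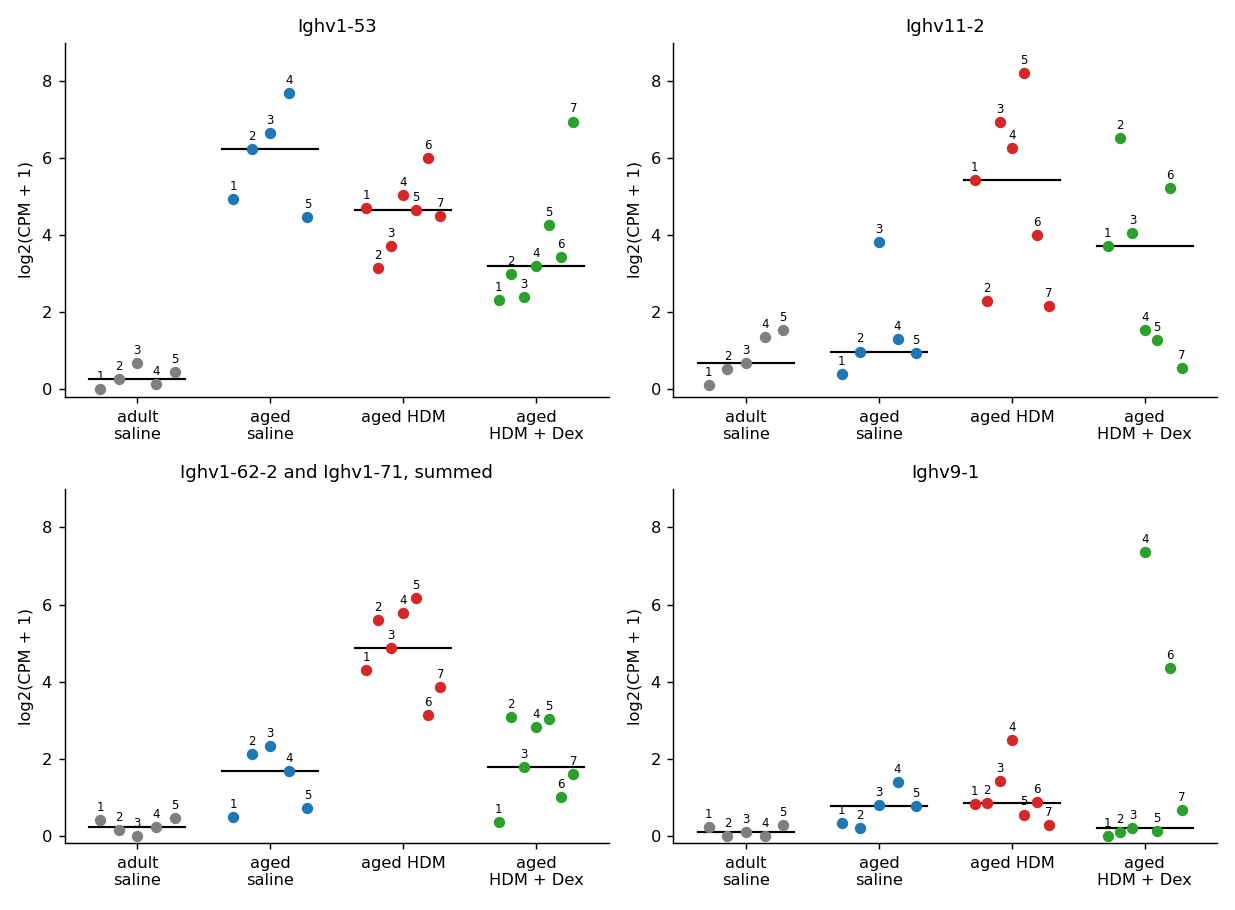
Expression of Ighv1-53, Ighv11-2, the sum of Ighv1-62-2 and Ighv1-71, and Ighv9-1 as log2(CPM + 1) in each sample (points, numbered by replicate), with group medians as lines. Ighv1-53 is high in all aged saline samples, the summed pair is above every other sample in the 7 HDM samples, and Ighv9-1 stands out in HDM + Dex samples 4 and 6.

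HDM + Dex was compared with HDM to show what the steroid changed. Of the 55 members tested, 9 were lower with Dex and none was higher, as compared with 0.214% of all genes that were lower and 0.750% that were higher. The log2 fold change was below 0 in 51 members, with a median of -1.09 as compared with 0.03 over all genes, and 32 members and 13.5% of all genes had an unadjusted p under 0.05. Family 1 held 7 of the 9, and Ighv2-2 and Ighv7-3 were the others. All 9 had limma adjusted p of 0.0270 to 0.0387, close to the threshold. The count fell to 0 without HDM sample 1, 4 or 5 or without HDM + Dex sample 1, 4 or 5, to 2 without HDM sample 3 or HDM + Dex sample 3, and rose to 14 without HDM sample 7. It was also 0 when only these 2 groups were fitted. Calls over all genes fell with it, from 171 of 17744 to 2 to 4 in the fits that left out a sample and called no member and to 1 with the 2 groups alone. Ighv1-62-2 had a log2 fold change of -3.30 to -2.48 with each sample left out and of -2.75 with the 2 groups, at limma adjusted p of 0.00139 to 0.157 over the alternatives.

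The pair of Ighv1-62-2 and Ighv1-71 was at 0.278, 7.40, 2.47, 6.01, 7.18, 1.01 and 2.03 CPM in HDM + Dex samples, all below the lowest HDM sample at 7.83 CPM. Fitted as a sum, its log2 fold change was -2.87 (SE 0.47, limma adjusted p = 0.0189), and singly Ighv1-62-2 fell by 2.75 and Ighv1-71 by 2.20. Ighv1-82 was at 11.6 to 164 CPM with a median of 22.9 in HDM samples and at 1.62 to 14.2 CPM with a median of 4.02 in HDM + Dex samples (log2 fold change -2.29, SE 0.52, limma adjusted p = 0.0365). Only HDM + Dex sample 7 reached the HDM range. Ighv1-80, the member nearest to it in sequence, and Ighv1-81 changed by -1.93 and -1.70. Ighv1-7 was at 0.995 to 14.3 CPM in HDM and 0.0928 to 0.540 CPM in HDM + Dex samples (log2 fold change -1.72, SE 0.36, limma adjusted p = 0.0292). Its relative Ighv1-4, of 96.9% identity, reached 7.27 CPM in HDM + Dex sample 7. Fitted as a sum, Ighv1-4 and Ighv1-7 did not pass the test (log2 fold change -1.29, SE 0.47, limma adjusted p = 0.192). In Ighv1-7 and Ighv6-3 every HDM + Dex sample lay below every HDM sample, as compared with 0.0789% of all genes.

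Several members named above did not pass the test in this comparison. Ighv11-2 was at 0.459 to 91.3 CPM with a median of 12.2 in HDM + Dex samples (log2 fold change -1.78, SE 0.94, limma adjusted p = 0.429). Ighv9-1 was at 163 CPM in sample 4 and had a group median of 0.154 CPM, as compared with 0.211 to 4.59 CPM in HDM samples (log2 fold change 0.79, SE 0.84, limma adjusted p = 0.760). Ighv5-4 (-1.67) and Ighv14-2 (-1.30) had adjusted p of 0.0905 and 0.215 in the same limma fit, and Ighv9-3 (-1.68) had 0.0794. Ighv6-3, at 0.294 to 4.09 CPM in HDM + Dex and 4.82 to 37.5 CPM in HDM samples, had a limma adjusted p of 0.219.

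On either side of 25% 7SL, most members were lower with Dex. Above it, 53 of 55 had a lower mean in the 4 HDM + Dex than in the 5 HDM samples, with a median difference of -1.39 on the log2 scale. There, the summed Ighv CPM was 55.2 to 253 with Dex and 323 to 1490 without. Below it, with 3 and 2 samples, 40 of 55 were lower with a median of -0.40, and the sums overlapped at 134 to 528 and 218 to 343 CPM. The members share these few samples, so that the counts are not repeated evidence. Some members passed the filter mainly through HDM samples, and the matching shares over all genes were not computed. Of the constant genes, Ighg1 (log2 fold change -3.52), Igha (-1.72) and Ighg2b (-1.70) fell, and none of 11 genes of antibody-secreting cells passed the test, with a median of -0.22.

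HDM + Dex was compared with saline to show what remained under the steroid. None of the 55 members passed the test in limma, as compared with 1.89% of all genes that passed it. At an unadjusted p under 0.05 there were 5 members and 21.2% of all genes. The median log2 fold change was -0.25 as compared with -0.19 over all genes. Ighv1-53, at 3.99 to 123 CPM in HDM + Dex and 21.3 to 207 CPM in aged saline samples, had the lowest value (log2 fold change -2.34, SE 0.65, limma adjusted p = 0.0609). Only HDM + Dex sample 7, at 123 CPM, lay above 21.3 CPM. Ighv11-2 had the highest value (1.78, SE 1.03, limma adjusted p = 0.305). It was at 12.2 to 91.3 CPM in the 4 HDM + Dex samples with over 25% 7SL and at 0.459 to 1.94 CPM in the other 3. The HDM samples, or the aged saline samples, are shared between these comparisons, so that their fold changes are not independent.

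**Figure D5:**
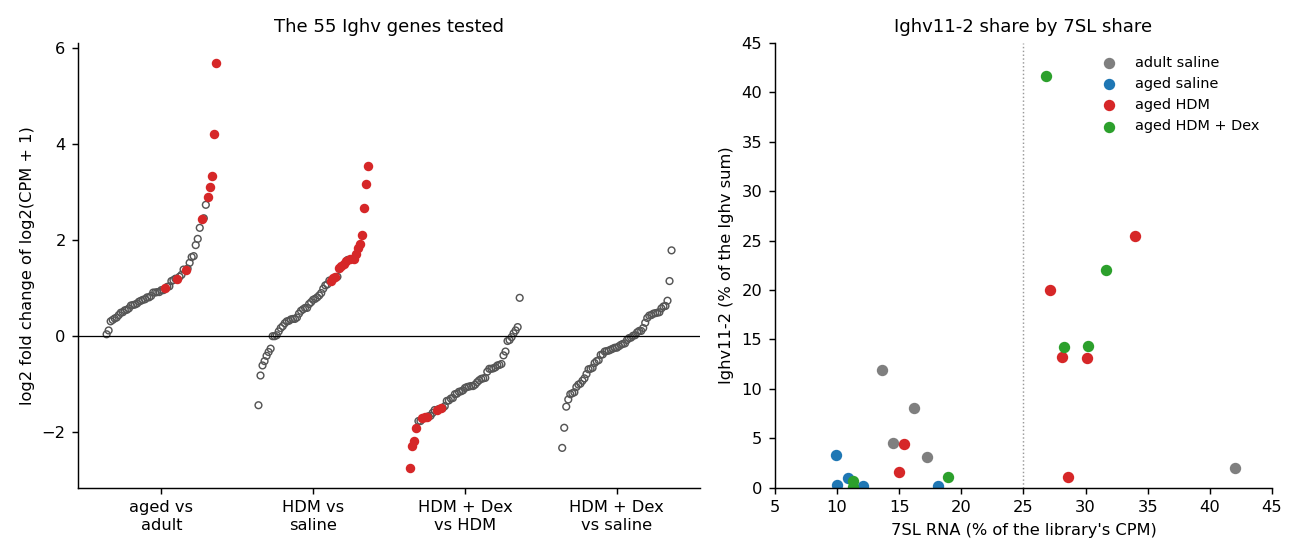
Left, log2 fold change of the 55 tested Ighv genes in each comparison, in order within each, with filled points for limma adjusted p under 0.05. Right, share of Ighv11-2 in the Ighv sum against the share of 7SL RNA in the library for each sample. The left panel holds 9, 16, 9 and 0 filled points, and in the right panel 8 of the 9 aged samples past the dotted line at 25% lie at 13.1% or more.

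The 35 members that were not tested had means under 1 CPM. Their highest value in any sample had a median of 2.18 CPM, and the largest was 14.4 CPM, of Ighv1-31. Together they held 1.38% to 16.4% of the Ighv sum of a sample, with a median of 5.01%. Of the 90 members, 13 were detected in all 24 samples, 12 were listed without reads in all adult samples, and every member was detected in at least 1 aged sample. Among tested members that led their families, Ighv3-6, Ighv4-1 and Ighv7-3 had means of 2.53, 1.41 and 1.92 CPM over all samples. Ighv4-1 (log2 fold change 1.15) and Ighv7-3 (1.49) were among the members higher with HDM, and Ighv3-6 was not (-0.34).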

How the data were processed

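RNA-Seq was performed on left lung lobes of 24 mice, and samples were grouped by age and treatment as given in the labels. According to the study's methods, libraries were stranded and made from mRNA, paired reads of 50 bases were sequenced, and the authors used a Picard-STAR-limma pipeline. The submitters' processing notes also list FastQC, DESeq2 and the build mm9, whereas the start of all 90 members in the table is that of GENCODE M21 on GRCm38. The counter, its handling of strand and of reads shared between genes, and the rule for keeping genes are not given in the sources used here. The authors deposited CPM with a constant of 0.0001 added, which was subtracted here. Since 80.9% to 85.8% of low values per sample were whole multiples of 1 spacing, they were not converted to counts, and no count test was run. Depth estimates cover counting error only. Labels do not describe the mice further than age, strain and treatment, and p-values measure the spread between these samples.

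Differential expression was computed from log2(CPM + 1) with limma 3.58.1 in R 4.3.3 for the 17744 genes whose mean over 24 samples was 1 CPM or more, by eBayes with trend and a Benjamini-Hochberg adjusted p under 0.05 over all genes. Fold changes on this scale understate the change of low genes. One fit took the 19 aged samples and another the 10 saline samples. On simulated data for HDM vs. saline, 195 of 200 changed genes (97.5%, log2 change of 2) were recovered and 7 others of 17744 were called. Sums, shares and the effective number were computed in Python 3.11.15 (pandas 2.3.3, numpy 2.4.6) and described without a test. The share of 7SL RNA was split at 25% after its values were seen. Genes named were, per comparison, up to 6 called members with the largest change in each direction, the highest member of each sample, the highest tested member of each family, and Ighv1-71, Ighv5-4 and Ighv14-2, which a heat map of the study labels. Ighv1-31, Ighv11-1 and Ighv9-2 were named after their values were seen, as were members with values that stand apart. The summed B cell marker list is not reported here. The members, gene lists and tests were chosen with earlier results of these data known.

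Alternatives were pseudocounts of 0.1 and 5, a minimum mean of 5 CPM or none, rescaling by median of ratios, other groups in the fit, no trend, sex as a covariate, sample weights, a replicate block, a minimum log2 fold change of 1 and leaving out each sample. Another 3 were added after seeing the data: the 7SL share as a covariate, the fit without the 3 samples lowest in Sftpc, and the fit with merged members. Same-numbered samples were not paired, since their deviations correlated at -0.24 to 0.41 (4 of 32 pairs over 0.1).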

Additional observations from a re-analysis of the deposited data

Results flagged for a closer look

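In 72 sets of samples (18 measures in 4 groups), the highest or lowest sample was tested for a gap to its neighbour that exceeds Dixon's critical value. For normally distributed values, chance alone passes it in about 1 in 20 sets. These sums and shares were not checked for that distribution, so that the rate may differ here. The critical value was passed 14 times. The summed Ighv CPM of HDM sample 5 (1490) lay far above the next HDM sample (576). The share of the highest gene in adult sample 4 (11.9%) lay above the other adult samples, which reached 8.12%, at 1.57 CPM each of Ighv1-55 and Ighv11-2.

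The other 12 were shares of single families in the Ighv sum. Family 9 held 55.9% in HDM + Dex sample 4, where the next sample held 16.1%. Family 6 held 22% in aged saline sample 2 (next 1.81%), and families 8 and 11 held 13.8% and 3.30% in aged saline sample 3 (next 2.34% and 1.03%). In HDM samples, family 10 held 8.72% in sample 6 (next 1.43%) and family 12 held 7.40% in sample 7 (next 1.5%). In HDM + Dex samples, family 14 held 13.6% in sample 5, family 13 held 4.57% in sample 7, family 4 held 3.53% in sample 1 and family 7 held 2.26% in sample 3. Family 13 also stood out in adult sample 5 (0.224%), at 0.0538 CPM, which is under the floor of 3 reads at 0.161 CPM. The other adult samples were at 0, so that any value would have passed there. In aged saline sample 1 family 13 stood out with 0.326%, at 0.424 CPM, above the floor of 0.106 CPM.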

How the results depend on the processing

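Counts of called members depended on the processing. Percentages in brackets are the shares of all tested genes called in the same fit. A filter at 5 CPM also left fewer members to test, so that its counts are not out of 55. For HDM vs. saline the count was 16 (25.3%). It was 6 with a filter at 5 CPM (29.4%), 10 of 38 with merged members (25.3%), and 25 with sample weights (44.4%). With the 7SL covariate it was 1 (8.85%), and with each sample left out 12 to 20 (16.6% to 30.1%). For HDM + Dex vs. HDM the count was 9 (0.964%). It was 3 with the filter at 5 CPM (1.15%), 0 with only the 2 groups fitted (0.00564%), and 20 with weights (3.44%). With a replicate block it was 1 (0.0451%), and without the 3 samples lowest in Sftpc it was 0 (0%). With each sample left out it was 0 to 14 (0.0113% to 3.07%), with the samples named beside the result. For HDM + Dex vs. saline the count was 0 (1.89%). It was 1 with the 2 groups (2.92%), 2 with sex (10.9%), 6 with weights (30.8%) and 1 with the block (5.06%). With each sample left out it was 0 to 1 (0.372% to 4.35%), and it was 1 without HDM + Dex sample 7. For aged vs. adult the count was 9 (0.654%). It was 16 (0.671%) and 4 (0.530%) at pseudocounts of 0.1 and 5, and 5 with all 24 samples in the fit (0.366%). It was 15 with sex (0.693%), 21 with weights (4.42%), 16 with the block (0.947%) and 5 with the 7SL covariate (0.958%). With each sample left out it was 6 to 13 (0.417% to 0.868%). The cause of these shifts was not tested. Rescaling, no filter, no trend and a minimum log2 fold change of 1 kept each count within 1.5 times, and rescaling put the median summed CPM of aged saline samples (335) below that of HDM samples (389), where it was above before. Ighv14-2 changed sign in HDM + Dex vs. saline with the 7SL covariate (-0.05), and so did Ighv5-4 (-0.51, and -0.01 to 0.45 with each sample left out, -0.01 without HDM + Dex sample 6). None of these was called.

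With members merged at 95% identity, the median effective number was 14.8 in adult, 4.58 in aged saline, 9.76 in HDM and 4.99 in HDM + Dex samples, and the median share of the highest member was 16.8%, 43.6%, 24.7% and 41.6%. With values under 3 reads set to 0, the adult medians were 18.9 and 11.3%, from the fewest reads. All 90 members were annotated as variable genes, so that restricting the sums to functional members changed nothing. Leaving out a sample moved no group median of the sums, effective numbers or shares by more than 1 SD, but a few moved by over 1.5 times. The aged saline median of the sum went from 400 to 265 CPM without sample 2 or 4. That of the family 11 share went from 0.244% to 0.631% without sample 1 and to 0.640% without sample 2 or 4. In HDM + Dex samples the family 11 share went from 14.4% to 7.72% without sample 1, 2 or 3 and to 7.76% without sample 6. The small number of Ighv reads limits the adult values most.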
